A study of Mus musculus with 6 samples.

Results

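Hspb7, a small heat shock protein of heart and skeletal muscle, and Actb, the cytoplasmic beta actin, were followed in the cardiac apex of db/db and C57BL/6 mice. Both genes were found by matching the RefSeq accession of each Agilent mRNA probe to a gene symbol, and each had 1 probe. Hspb7 (NM_013868, chromosome 4) was read by probe A_51_P346445 and Actb (NM_007393, chromosome 5) by probe A_51_P173760. They are 2 of the 50 mRNA probes on an array whose 14330 distinct non-control probes are otherwise designed mainly for circular RNAs. Each mRNA probe was printed as 10 spots per array.

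Small heat shock proteins are chaperones that hold unfolding proteins in a soluble state without using ATP. Hspb7 belongs to this family, binds filamin C and restrains the assembly of actin filaments in heart muscle cells. Actb is the actin of the cytoskeleton of nearly every cell type, while the sarcomere of the adult heart is built from alpha actins. Because its transcript is abundant in most tissues, Actb is widely used as a reference gene.

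The title of the study places it in circRNAs of the fibrotic db/db heart. The db/db mice lack a functional leptin receptor and become obese and diabetic. They were compared with C57BL/6 mice at 21 weeks of age, with 3 arrays per group, each taken as a different animal. The sources used here do not give the background strain or sex of the animals. Total RNA of both groups was digested with RNase R, which degrades linear RNA and spares circles. The signal of the 2 mRNA probes was therefore taken as the linear RNA that remained. Whether these probes also read circular RNA of the same genes was not tested. A lower transcript level, fewer cells that express the gene and a stronger digestion cannot be told apart in these bulk samples. No cardiomyocyte, fibroblast, endothelial, smooth muscle, leukocyte, adipocyte or blood marker of the lists used had an mRNA probe, so the labelled tissue was not checked against its markers.

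The arrays differed in brightness. Where 3 values of a group are listed, they follow the order of replicates 1, 2 and 3. The 75th percentile of processed intensity over non-control probes was 715, 557 and 399 in C57BL/6, against 494, 296 and 376 in db/db. No label names a slide, so arrays that share a scan identifier were taken as 1 slide. By this inference C57BL/6 replicates 1 and 2 were on slide 1, and the other 4 arrays on slide 2. C57BL/6 replicate 3 was then the only control on the slide of the db/db arrays. The log2 75th percentile averaged 9.08 ± 0.42 in the control group and 8.57 ± 0.37 in db/db (SD, n = 3, two-sided exact permutation p = 0.2). Levels below are log2 intensities minus this percentile of the same array, called relative levels.

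Both probes read far above local background on every array. The processed intensity of Hspb7 was 2677, 2431 and 1372 in C57BL/6, against 1827, 889 and 1118 in db/db. That of Actb was 652, 625 and 407 on the C57BL/6 arrays, and 441, 488 and 392 on the db/db arrays. For both genes the 2 highest values came from the arrays of slide 1, which also had the highest 75th percentiles. The median local background of the spots used was 17.75 to 20, and every spot used was well above background.

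The 15 probes named as negative controls gave a second background. None of them was brighter than Hspb7 on any array, and the brightest lay between 552 and 984. For Actb 1 of the 15 was brighter on 5 of the 6 arrays and 0 on C57BL/6 replicate 2, where Actb read 625 and the brightest negative control 586. The median negative control was 17.6 to 31.7, so Actb stood above most of these probes and, except on C57BL/6 replicate 2, below the brightest. Actb has a close paralog, Actg1, and many processed pseudogenes, and whether the probe also binds their RNA was not tested.

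**Figure D1:**
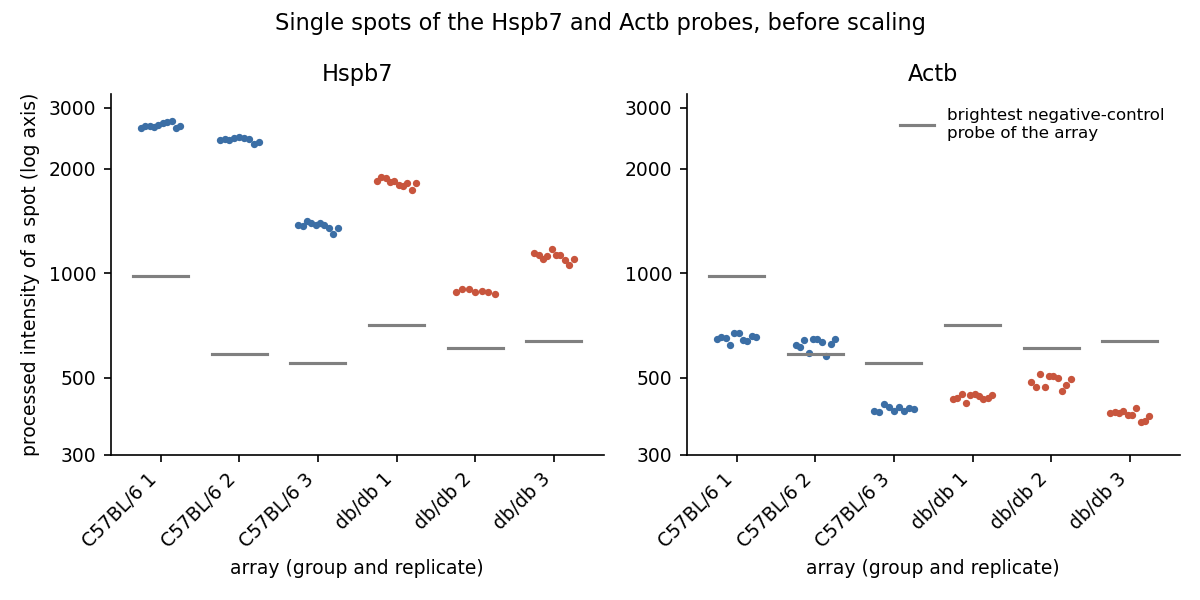
Processed intensity of single spots on a log axis, against the array, for Hspb7 (left) and Actb (right), with C57BL/6 in blue and db/db in red. Each point is 1 spot left after removal of outlier spots, and the grey line is the brightest negative-control probe of that array, which lies below all Hspb7 spots and above the Actb spots on every array but C57BL/6 replicate 2.

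The spots of a probe agreed closely within an array. The SD over spots was 0.015 to 0.041 for Hspb7 and 0.025 to 0.056 for Actb on the log2 scale, beside a median of 0.030 to 0.041 over the mRNA probes. On db/db replicate 2 the Hspb7 value rests on 7 spots, because 3 were marked as outliers, and on C57BL/6 replicate 2 it rests on 9. Actb lost 1 spot, on C57BL/6 replicate 3. The SD between arrays of a group was larger than that between spots, at 0.175 in C57BL/6 and 0.178 in db/db for Hspb7, and at 0.151 in C57BL/6 and 0.461 in db/db for Actb. Precision is set by the 3 arrays per group rather than by the 10 spots per probe.

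Hspb7 read lower in db/db than in C57BL/6 by an amount that did not pass the test. Its relative level was 1.90, 2.13 and 1.78 in C57BL/6, against 1.89, 1.59 and 1.57 in db/db. Replicates 2 and 3 of db/db lay below all C57BL/6 arrays, while db/db replicate 1 lay inside the C57BL/6 range, so the groups overlapped. The mean was 1.94 ± 0.18 for the C57BL/6 arrays and 1.68 ± 0.18 for the db/db arrays (SD, n = 3). The log2 difference was -0.26 ± 0.16 (SE), or 1.19-fold lower, with a 95% interval from 1.54-fold lower to 1.08-fold higher. In the limma fit across all 14312 probes tested, the p was 0.150 before and 0.586 after Benjamini-Hochberg adjustment, and the two-sided exact permutation p was 0.2, where 0.1 is the smallest that 3 arrays against 3 allow.

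The difference of Hspb7 was smaller where the slide was held constant. Against C57BL/6 replicate 3 alone, the control on their own slide, the db/db arrays differed by -0.10 ± 0.24 (log2, SE, limma adjusted p = 0.99992 with slide as a block). Without C57BL/6 replicate 2, the highest array, the difference was -0.16. Slide and group are partly confounded here, and the part of the slide in the result was not tested further.

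**Figure D2:**
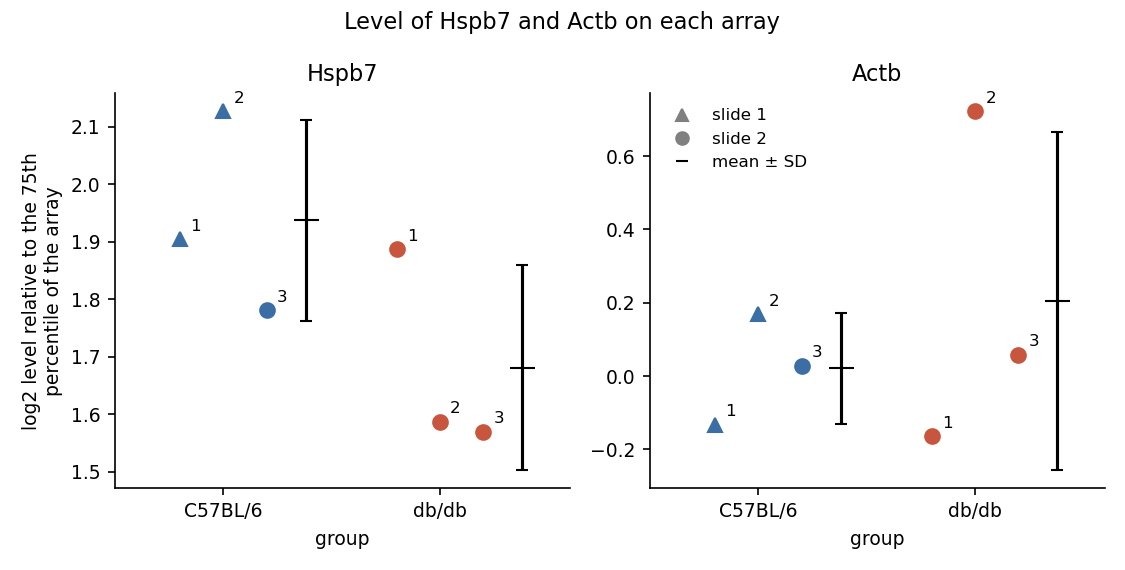
Log2 level relative to the 75th percentile of the array (vertical axis) by group for Hspb7 (left) and Actb (right). Each point is 1 array, numbered by replicate, with triangles for slide 1 and circles for slide 2, and the bar is the mean ± SD of 3 arrays; the Hspb7 groups overlap through db/db replicate 1, and db/db replicate 2 lies at 0.72 for Actb while the other 5 arrays lie between -0.16 and 0.17.

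Actb did not pass the test in either direction, and 1 db/db array lay far above the others. Its relative level was -0.13, 0.17 and 0.03 in C57BL/6, against -0.16, 0.72 and 0.06 in db/db. Replicate 2 of db/db was the highest of all arrays, replicate 1 of db/db was the lowest, and db/db replicate 3 lay within the C57BL/6 range. The mean was 0.021 ± 0.15 for the C57BL/6 arrays and 0.21 ± 0.46 for the db/db arrays (SD, n = 3). The log2 difference was 0.18 ± 0.23 (SE), or 1.14-fold higher, with a 95% interval from 1.26-fold lower to 1.62-fold higher. By limma the p was 0.440 before and 0.803 after adjustment, and the two-sided exact permutation p was 0.8.

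Without db/db replicate 2 the Actb difference was -0.074, and without db/db replicate 1 it was 0.37, so its direction rests on db/db replicate 2. It was 0.11 without C57BL/6 replicate 1. Replicate 2 of db/db was the dimmest array by its 75th percentile, 296, while the Actb intensity there, 488, was the highest of the db/db arrays. Hspb7, at 889, was the lowest of all arrays on the same array. With slide as a block the Actb difference was 0.18 ± 0.35 (SE, limma adjusted p = 0.99992).

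**Figure D3:**
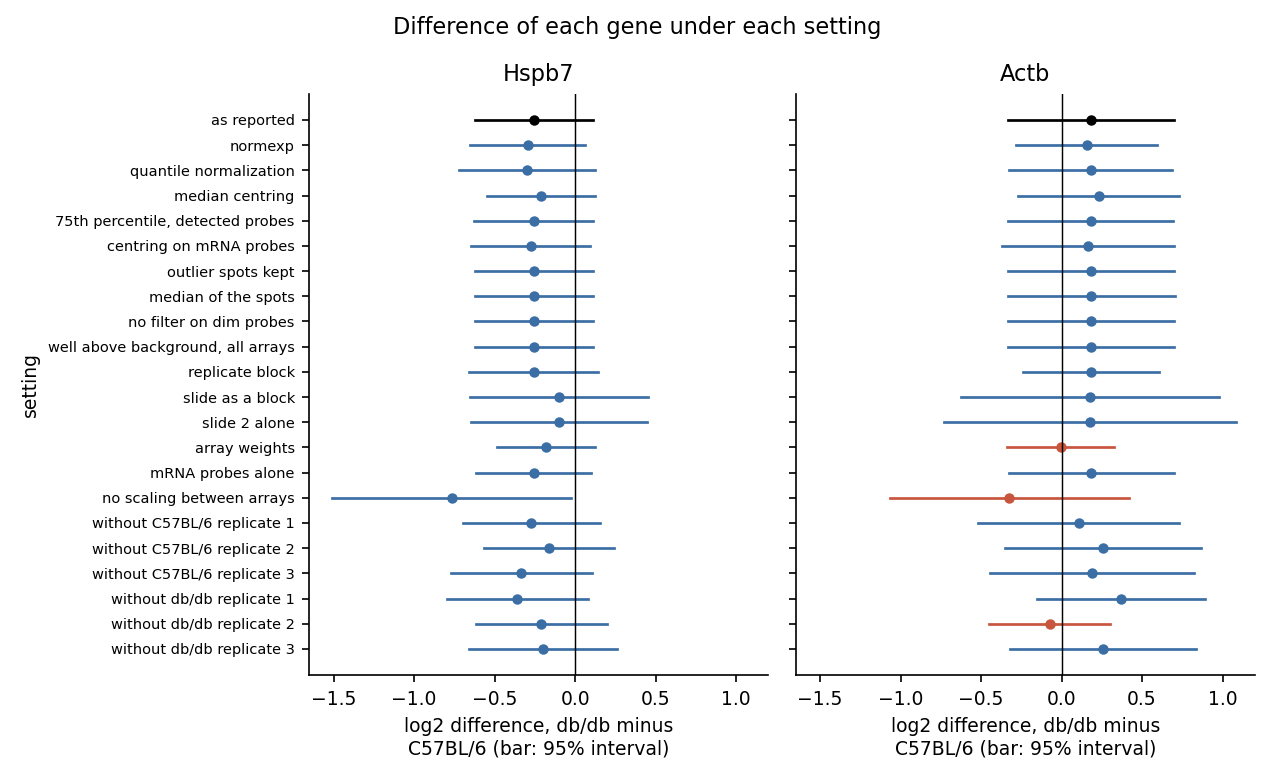
Log2 difference, db/db minus C57BL/6 (horizontal axis), of Hspb7 (left) and Actb (right) under each processing setting or left-out array (vertical axis), with 95% limma intervals. The reported value is black and values of opposite sign are red. Of the 16 distinct alternatives that can move the value, all keep Hspb7 below 0 and 3 place Actb below 0. With scaling, Hspb7 runs from -0.36 to -0.10. Without scaling between arrays, an unplanned alternative, Hspb7 reads -0.77 and Actb -0.33, where the median over all tested probes is -0.50.

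Before any scaling between arrays, both genes read lower in db/db. The unscaled log2 difference was -0.77 for Hspb7 (limma adjusted p = 0.274) and -0.33 for Actb (limma adjusted p = 0.505). The median over all tested probes without scaling was -0.50, so Hspb7 lay below this common shift and Actb above it. With scaling by the 75th percentile the median over all tested probes was 0.013.

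The scaling of an array cancels when the genes are compared within it. Hspb7 relative to Actb, set to a mean of 0 over the C57BL/6 arrays, was 0.12, 0.043 and -0.16 in C57BL/6, against 0.14, -1.05 and -0.41 in db/db. Replicates 2 and 3 of db/db lay below all C57BL/6 arrays and db/db replicate 1 lay above them all. The log2 difference was -0.44, which did not stand out from the spread between arrays (two-sided exact permutation p = 0.4). It was -0.13 without db/db replicate 2 (exact permutation p = 0.7) and -0.73 without db/db replicate 1 (exact permutation p = 0.1, the smallest that 2 arrays against 3 allow), and -0.28 with slide as a block. Its size thus differed by which db/db array was left out.

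Neither gene passed the test, which was also the case for the other mRNA probes. By limma 0 of the 2 members passed 0.05 after adjustment, and 0 passed it before adjustment. Among the 50 mRNA probes these counts were 0 (0%) and 8 (16%), and among all 14312 probes tested they were 0 (0%) and 1512 (10.6%). Groups that did not overlap were seen for 0 of the 2 members, for 9 (18%) of the mRNA probes and for 2427 (17%) of all probes. The count of 8 mRNA probes became 4, 3 and 8 without C57BL/6 replicates 1, 2 and 3, in that order. It became 6, 3 and 7 without db/db replicates 1, 2 and 3. With slide as a block it was 0, and with quantile normalization 10. Whether the same probes were counted each time was not tested.

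The log2 differences of the mRNA probes ran from -0.78 to 0.95, with a median of -0.027, 21 above 0 and 29 below. By size without regard to sign Hspb7 ranked 16 and Actb 23 of 50, and the median size was 0.18. Hspb7 had the fifth lowest signed value. Actb varied more among db/db arrays than most of these probes, ranking 6 of 50 by its SD there and 29 of 50 by its SD in C57BL/6, while Hspb7 ranked 27 and 21. Whether the spread of Actb differs between the groups was not tested.

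**Figure D4:**
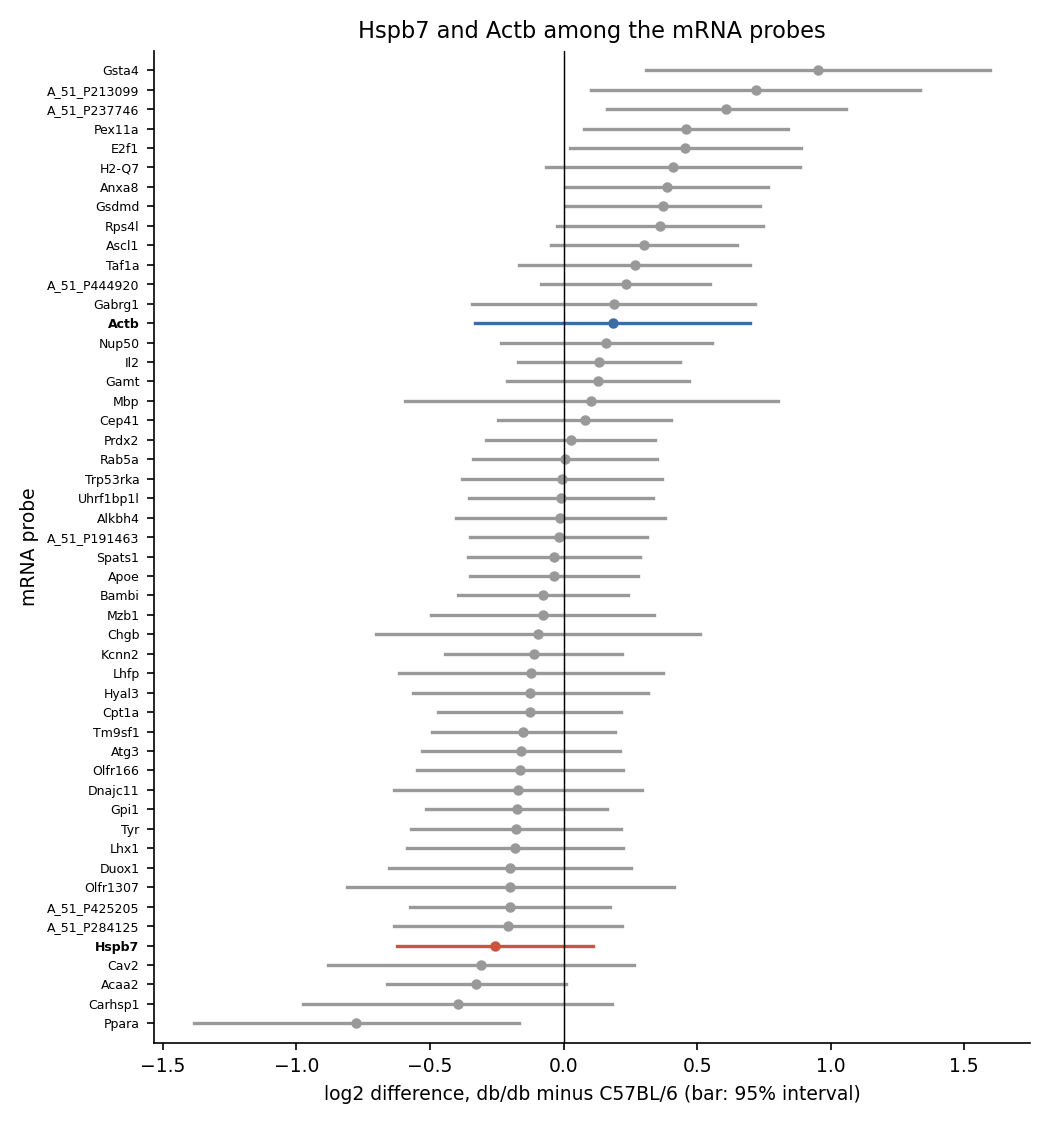
Log2 difference, db/db minus C57BL/6 (horizontal axis), of the 50 mRNA probes sorted by value (vertical axis; probe IDs where no gene name was matched), with 95% limma intervals. Hspb7 (red, -0.26) and Actb (blue, 0.18) lie inside the range of the other probes, and both intervals include 0.

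The other genes of these families were scarcely represented. Of 10 small heat shock proteins only Hspb7 had an mRNA probe, and of 6 actins only Actb. Of 20 further chaperones and partners of the small heat shock proteins, such as Bag3 and filamin C, 0 had a probe, and the same held for 30 actin-binding and thin filament genes. Of 18 common reference genes Actb and Gpi1, the glycolytic phosphoglucose isomerase, had one. Circular RNAs of Hspb7 and Actb were not analysed here, since the circRNA probes were not paired with host genes.

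Gpi1 served as a second reference gene. Relative to its own mean it read 0.24, -0.0037 and 0.026 in C57BL/6, against -0.16, -0.16 and 0.060 in db/db. Its groups overlapped, and unlike Actb it was not high on db/db replicate 2. Its log2 difference was -0.18 ± 0.15 (SE, limma adjusted p = 0.699), and it was -0.11 with slide as a block. The difference of Actb had the opposite sign, which rested on db/db replicate 2, since without that array the values were -0.074 for Actb and -0.14 for Gpi1.

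The genes whose pattern over the 6 arrays lay closest to each member were found among the other 43 named mRNA genes. Likeness was the root mean square difference of log2 relative levels after each probe was centred on its own mean, so that a smaller value means a closer pattern. The measure also depends on how much a probe varies, so a nearly flat probe can lie closer than the median gene. All genes share the scaling of their array, and the values describe these arrays only. The nearest genes were picked by these same values. Shared high or low arrays, and a like group difference, thus follow in part from the choice. Hspb7 lay closest to Acaa2, the thiolase of the last step of mitochondrial fatty acid breakdown, at 0.077, then to the probe of Kcnn2, a calcium-activated potassium channel, at 0.10, and to Cpt1a, which attaches fatty acids to carnitine for entry into mitochondria, at 0.12. The median over the 43 genes was 0.28, and Actb stood at 0.42, rank 35. The nearly flat Il2 probe, at -0.11 to 0.12 around its own mean, stood at 0.26 from Hspb7. Apoe, about as flat at -0.086 to 0.12, stood at 0.14. Cpt1a was thus little closer to Hspb7 than a probe with scarcely any pattern. The Kcnn2 probe read 11.4 to 33.7 in processed intensity, below the median negative control on 5 of the 6 arrays, so it is named by the rule but not read as expression, and no difference is given for it.

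Acaa2 and Hspb7 shared their highest array, and differed in sign on some others. Relative to its own mean Acaa2 read 0.12, 0.29 and 0.082 in C57BL/6, against -0.021, -0.30 and -0.16 in db/db. Hspb7 read 0.095, 0.32 and -0.028 on the C57BL/6 arrays, and 0.077, -0.22 and -0.24 on the db/db arrays. Both were highest on C57BL/6 replicate 2 and low on db/db replicates 2 and 3, but they lay on opposite sides of their means on C57BL/6 replicate 3 and db/db replicate 1. The log2 difference was -0.33 ± 0.15 for Acaa2 (SE, limma adjusted p = 0.479) and -0.13 ± 0.15 for Cpt1a (adjusted p = 0.797). The groups of Acaa2 did not overlap, as for 18% of the mRNA probes, and those of Cpt1a did. The value of Cpt1a was 0.00073 with normexp, 0.0028 with slide as a block and -0.043 without db/db replicate 2. Scalings that subtract 1 constant per array cancel in the likeness. Of the 10 alternatives that could change it, Acaa2 was the closest gene to Hspb7 in 8, and the same 3 genes were closest in 6.

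Actb had no gene as close. Its nearest was Rps4l, a relative of the ribosomal protein gene Rps4x, at 0.19. H2-Q7, a class Ib MHC molecule with close paralogs, followed at 0.24, and the pyroptosis pore protein Gsdmd at 0.25. The median was 0.38, but the nearly flat Il2 probe stood at 0.28. H2-Q7 and Gsdmd were thus little closer to Actb than a probe with scarcely any pattern. The Rps4l probe was dim, at 50.3 to 70.4 in processed intensity, while the 75th percentile of the arrays ran from 296 to 715. Its relative level was lowest on the brightest array, C57BL/6 replicate 1, at -0.40, and highest on the dimmest, db/db replicate 2. How far its pattern follows the brightness of the arrays was not tested. Actb and these 3 genes were highest on db/db replicate 2, at 0.61 for Actb, 0.40 for Rps4l, 0.65 for H2-Q7 and 0.33 for Gsdmd relative to their own means. On db/db replicate 1, where Actb was lowest at -0.28, Rps4l, H2-Q7 and Gsdmd read -0.024, 0.073 and 0.11. The log2 difference was 0.36 ± 0.17 for Rps4l (SE, limma adjusted p = 0.489), 0.41 ± 0.21 for H2-Q7 (adjusted p = 0.518) and 0.37 ± 0.16 for Gsdmd (adjusted p = 0.463). The groups of Rps4l and Gsdmd did not overlap, as for 18% of the mRNA probes, and those of H2-Q7 did. With slide as a block the value was 0.22 for Rps4l, 0.50 for H2-Q7 and 0.14 for Gsdmd. Without db/db replicate 2 it was 0.25 for Rps4l, 0.19 for H2-Q7 and 0.30 for Gsdmd. The 3 nearest genes of Actb were the same in 2 of the 10 alternatives, both of them other ways to summarise the spots, and in 0 of the 6 left-out arrays, and none of them was among the nearest without db/db replicate 2 or with normexp.

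**Figure D5:**
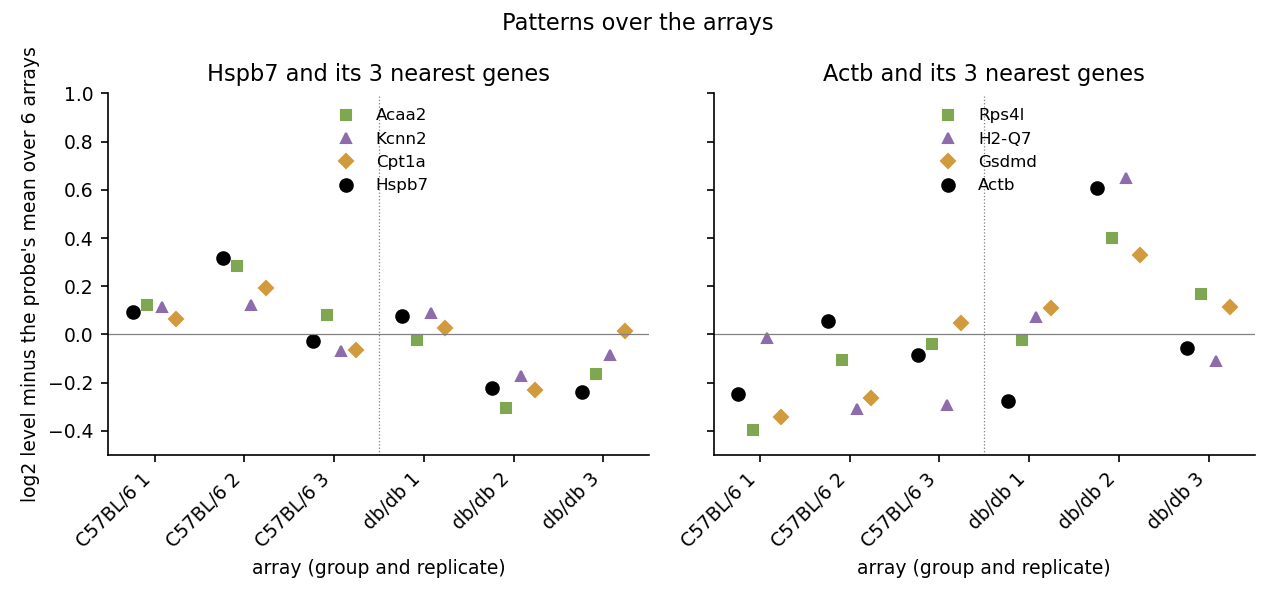
Log2 relative level minus the probe's mean over the 6 arrays (vertical axis) on each array (horizontal axis) for Hspb7 (left) and Actb (right), in black, with the 3 genes of closest pattern in colour; each point is 1 probe on 1 array and the dotted line parts the groups. Hspb7 and Acaa2 share their highest value on C57BL/6 replicate 2, and Actb and its neighbours on db/db replicate 2. The neighbours were picked for likeness on these same arrays, so such sharing follows in part from the choice.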

How the data were processed

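RNA of the cardiac apex was hybridised to 6 one-colour Agilent arrays of a circRNA design. Agilent Feature Extraction 11.0.1.1 had subtracted the background from each deposited spot intensity and removed spatial trends, per the file headers, without normalizing between arrays. Other columns of the deposited files are flags for outlier, saturated and well-above-background spots. No spot was saturated. The submitters' processing notes also name limma.

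For each probe the mean log2 processed intensity was taken over its spots, outliers left out, and from it was subtracted the 75th percentile of the array, taken over non-control probes. The 14312 probes tested had a value on every array and were well above background (in a share of at least 0.5 of their spots) on a minimum of 3 arrays. The test was that of limma 3.58.1 under R 4.3.3 (lmFit, then eBayes, with group as the only term, two-sided), adjusted by Benjamini-Hochberg over all probes tested, with a threshold of 0.05. The fit was tested on simulated data with changes of 3 log2 units in either direction. That is larger than the difference of any mRNA probe here, so the simulation does not bear on smaller differences. Symbols came from RefSeq on GRCm38.p6, from which no coordinates were taken, and 44 of 50 mRNA probes matched. Arrays with 1 scan identifier were taken as 1 slide. Named genes were the members, list genes with a probe and, per member, the 3 nearest in pattern. The members and lists were chosen with earlier results of these data known. The labels number the replicates of each group, and each array was taken as a different animal. Alternatives covered background correction, scaling, spots, filter, blocks, weights and left-out arrays.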

Additional observations from a re-analysis of the deposited data

How the results depend on the processing

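Of 21 alternatives run on each gene, 5 either leave its estimate as it is by construction (both filters, the replicate block and moderation over mRNA probes) or repeat another (slide 2 alone). In the other 16 Hspb7 read lower in db/db, with limma adjusted p no lower than 0.274. The log2 value was -0.77 without scaling between arrays and -0.36 to -0.10 in the rest. Its unadjusted limma p was under 0.05 only without scaling between arrays (0.0432). Actb kept its sign in 13 of the 16, with adjusted p of 0.505 to 0.99992. It reversed to -0.0045 with array weights, where db/db replicate 2 had the lowest weight (0.32), and to -0.074 without that array. It also reversed to -0.33 without scaling between arrays, an alternative chosen after seeing the data. The cause was not tested. Leaving out 1 array gave -0.36 to -0.16 for Hspb7 and -0.074 to 0.37 for Actb. The difference of Hspb7 relative to Actb stayed below 0 in the 12 alternatives that could move it, from -0.73 to -0.13. The count of 0 mRNA probes at a limma adjusted p under 0.05 held in all 21, beside 0 to 10 at an unadjusted p under 0.05. With the replicate block the values were -0.26 (p = 0.175) for Hspb7 and 0.18 (p = 0.338) for Actb by limma, and -0.44 for their difference (exact permutation p = 0.5), with 6 mRNA probes at an unadjusted p under 0.05 and 0 after adjustment. Correlations of deviations across probes were -0.26, -0.13 and 0.42 between arrays of the same replicate number. Between arrays of different numbers they were -0.33 to 0.50. Deviations from a mean of 3 arrays constrain each other, so these values do not settle whether the numbers pair the arrays. With slide as a block or slide 2 alone, 1 C57BL/6 array carries the contrast and is assumed to vary like the others. The authors' deposited table was not run, because its rows are circRNA probes. Precision is limited by 3 arrays per group, and a difference of Hspb7 up to 1.54-fold lower or of Actb up to 1.62-fold higher lies within the 95% intervals.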

Other observations

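Dnajc11, a J-domain protein of mitochondria, was the other chaperone-related gene with an mRNA probe, and was chosen after its values were seen. Relative to its own mean it read 0.16, 0.043 and 0.050 in C57BL/6, against -0.15, -0.46 and 0.35 in db/db (in the order of replicates 1, 2 and 3). The db/db arrays lay on both sides of the C57BL/6 arrays. Its log2 difference was -0.17 ± 0.21 (SE, limma adjusted p = 0.798), and it was 0.015 without db/db replicate 2.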
